A study of Mus musculus with 12 samples.

Results

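The 47 protein-coding genes of mouse whose symbols begin with Psma, Psmb, Psmc, Psmd, Psme, Psmf or Psmg and a number, less the inducible subunits Psmb8, Psmb9 and Psmb10, were followed through cultures of 3 mouse cell lines, Melan-A, B16F0 and B16F10, with and without SX-682. They were taken by name from 34513 genes in the table of read counts, by a rule that used no levels. The rule was chosen with earlier results of these data known. Of the 47 genes, 45 passed the expression filter that left 18338 genes for testing. Psma8 and Psmb11 did not pass. Psmc3ip was taken by its name but encodes a partner of meiotic recombinases and is no proteasome part. SX-682 blocks the chemokine receptors CXCR1 and CXCR2. The labels describe Melan-A as a nontumorigenic line and B16F0 and B16F10 as melanoma lines, and the controls received no treatment. Each of the 6 groups (untreated Melan-A, SX-682 Melan-A, untreated B16F0, SX-682 B16F0, untreated B16F10 and SX-682 B16F10) had 2 libraries, so 12 libraries were compared. The dose and duration of SX-682 in these cultures are not given in the sources used here, and each line stands for itself and not for a class of tumors.

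The proteasome is the protease that degrades proteins tagged with ubiquitin chains. Its barrel-shaped core is built of alpha rings, which gate entry, around beta rings, in which Psmb5, Psmb6 and Psmb7 carry the proteolytic sites. A regulatory particle caps the core: its base holds a ring of ATPases that unfold the substrate and receptors that bind ubiquitin, and its lid holds the enzyme that removes the ubiquitin chain. Alternative activators (the Psme genes), an inhibitor (Psmf1) and assembly chaperones (Psmg1 to Psmg4 for the core, and Psmd5, Psmd9 and Psmd10 for the base) complete the family. When proteasome activity falls, the transcription factor NRF1, encoded by Nfe2l1, is known to raise proteasome subunit genes together, once its protein has been processed, through antioxidant response elements in their promoters.

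Library totals lay between 48876982 and 85322092 counts, and the 47 genes together took between 0.619% and 0.716% of the counts of a library. Levels are given as CPM, the library's counts rescaled to a common total after TMM scaling, and changes as log2 fold changes ± standard error from edgeR's quasi-likelihood fit of all 12 libraries, called where the p-value adjusted over all 18338 genes was below 0.05. The standard errors are approximate, derived from each change and its F statistic. The biological coefficient of variation was 2.78%, so very small changes could pass. The labels do not say whether the 2 libraries of a group came from separate cultures, and the p-values then measure only the spread between these samples; an exact permutation test of 2 libraries against 2 could not give a two-sided p below 0.333. All 12 libraries lay closest to the other library of their own group. The labelled cell type was checked with markers: 7 melanocyte genes summed to 14900 to 24500 CPM in the B16 libraries but only 1340 to 1370 CPM in the Melan-A libraries, where 5 fibroblast genes summed to 91.9 to 108 CPM against 8.43 to 16.7 CPM in B16. In Melan-A the melanosome gene Pmel stood at 7.53 and 8.69 CPM and the pigment enzyme gene Tyr at 0.891 and 0.759 CPM without treatment. Other genes of the melanocyte list stood higher there, with untreated means of 354.5 CPM for Dct, 116.4 for Mlana and 102.1 for Mitf. The larger part of the sum in untreated Melan-A came from Tyrp1 and Sox10, which are not given singly here. In untreated B16F0 and B16F10 these means were 5689 and 8672 for Dct, 647.6 and 1011 for Mlana, and 366.6 and 420.2 for Mitf. The fibroblast sum in untreated Melan-A came mainly from Col3a1 and Col1a1, with means of 53.88 and 46.37 CPM. In untreated B16F0 and B16F10 the means were 0.1226 and 0.008265 for Col3a1, and 5.792 and 2.591 for Col1a1. Dcn was also higher in Melan-A, at 2.5 CPM against 0 in both B16 lines. Col1a2 went the other way, at 0.7634 CPM against 2.356 and 5.142. Pdgfra, at 3.998 CPM, lay between B16F0 (8.108) and B16F10 (1.332). Markers of keratinocytes, leukocytes (3 of 4 genes measured) and endothelial cells summed to at most 3.39 CPM in any library. The part of these marker differences in the comparisons between lines was not tested.

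Promoters were examined for the letters of the antioxidant response element core, TGACNNNGC (reverse complement GCNNNGTCA), and of the CCAAT box (reverse complement ATTGG), a motif bound by NF-Y, on both strands of the 300 bases from 250 before to 50 after the RefSeq start (GRCm38.p6). A promoter was given for 39 of the 47 genes, and those of Psma8, Psmb1, Psmb2, Psmb7, Psmc3, Psmd3, Psmd7 and Psmg2 were not used here. The antioxidant response element letters were present in 6 of the 39 promoters (15.4%), those of Psmb5, Psmb6, Psmc6, Psmd9, Psmd12 and Psme4, against 12.4% of all 32851 promoters in the RefSeq table. The CCAAT letters were present in 14 of the 39 (35.9%) against 37.4% of all promoters. No promoter of the family held both, and 19 held neither, so the shares were near those of promoters at large. The stretch before the start is shown for the catalytic genes Psmb5 at chr14:54618023-54618245 (minus strand) and Psmb6 at chr11:70525107-70525356 (plus strand), and for the genes with the largest rise and the largest fall shared by the 3 lines, Psmd4 at chr3:95042615-95042864 (minus strand) and Psmd6 at chr14:14120985-14121195 (minus strand). Each is written 5′ to 3′ on the strand of its gene and stops before the earlier of the RefSeq start and the start used in the count table, and capitals mark the motif letters.
Psmb5: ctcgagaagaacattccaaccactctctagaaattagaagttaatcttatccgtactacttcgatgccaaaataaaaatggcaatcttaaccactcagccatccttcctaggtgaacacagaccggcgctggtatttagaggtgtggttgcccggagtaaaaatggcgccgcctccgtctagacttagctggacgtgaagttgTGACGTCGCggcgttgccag
Psmb6: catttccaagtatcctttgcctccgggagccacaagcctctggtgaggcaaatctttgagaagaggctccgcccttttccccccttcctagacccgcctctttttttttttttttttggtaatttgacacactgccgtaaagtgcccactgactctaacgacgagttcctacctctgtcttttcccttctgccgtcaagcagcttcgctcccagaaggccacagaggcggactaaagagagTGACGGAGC
Psmd4: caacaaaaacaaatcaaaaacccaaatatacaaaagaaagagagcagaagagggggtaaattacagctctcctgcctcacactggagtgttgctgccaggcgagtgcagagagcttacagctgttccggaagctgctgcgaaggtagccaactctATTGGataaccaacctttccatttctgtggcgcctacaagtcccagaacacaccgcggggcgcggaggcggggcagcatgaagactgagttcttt
Psmd6: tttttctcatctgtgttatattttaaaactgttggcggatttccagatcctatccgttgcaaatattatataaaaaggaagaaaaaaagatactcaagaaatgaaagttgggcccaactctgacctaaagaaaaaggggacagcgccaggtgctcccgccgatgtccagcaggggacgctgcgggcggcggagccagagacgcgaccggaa
In Psmb5 and Psmb6 the capitals mark the antioxidant response element letters, in Psmd4 they mark the CCAAT box on the opposite strand, and the Psmd6 stretch held neither.

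The first question was how the proteasome genes changed with SX-682 within each line. Among Melan-A libraries, 22 of the 45 genes tested fell and 3 rose, where 24.7% of all genes tested fell and 23.4% rose. In B16F0, 24 fell and 4 rose, against backgrounds of 25.0% lower and 25.1% higher. In B16F10, 17 fell and 13 rose, against 25.3% lower and 25.5% higher. Counting both directions, 25, 28 and 30 of the 45 genes were called, against 48.2%, 50.1% and 50.8% of all genes tested. As shares of the 45 genes, falls made up 48.9%, 53.3% and 37.8% in Melan-A, B16F0 and B16F10, and rises 6.67%, 8.89% and 28.9%. The changes were small. The median log2 fold change of the family was -0.09 for Melan-A, -0.10 for B16F0 and -0.04 for B16F10, where the median of all genes tested was 0 in each line. Only 7, 6 and 7 of the 45 genes moved by 0.25 or more on the log2 scale in Melan-A, B16F0 and B16F10, and none by 1 or more. The median size of the change, whatever its sign, was 0.123, 0.109 and 0.136 in the family against 0.307, 0.323 and 0.362 over all genes tested. Shares and sizes over all genes tested, here and below, were not matched for level. Of the 18338 genes, 9909 had a mean log2 CPM over 3. In the family only Psme2b, at 2.44, lay below 3, and Psmg3, at 3.1, came next. The part of this difference in level was not tested. In bulk RNA, fewer cells of a kind and less RNA per cell cannot be told apart.

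Summed over the 47 genes, the level was 6187 and 6088 CPM in untreated Melan-A and 5816 and 5746 CPM with SX-682. In B16F0 the sum was 7180 and 7104 CPM without and 6647 and 6703 CPM with SX-682, and in B16F10 it was 6751 and 6816 CPM without and 6666 and 6775 CPM with it. The treated sums thus lay below both untreated sums in Melan-A and B16F0, and overlapped them in B16F10. Other scalings moved the split between rises and falls. In Melan-A it became 7 higher and 20 lower with upper-quartile scaling and 7 higher and 21 lower with total counts alone, and in B16F10 upper-quartile scaling gave 14 higher and 13 lower, so that falls no longer outnumbered rises there. Of the called genes, 21 of 25 in Melan-A, 20 of 28 in B16F0 and 19 of 30 in B16F10 stayed called whichever single library was left out.

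**Figure D1:**
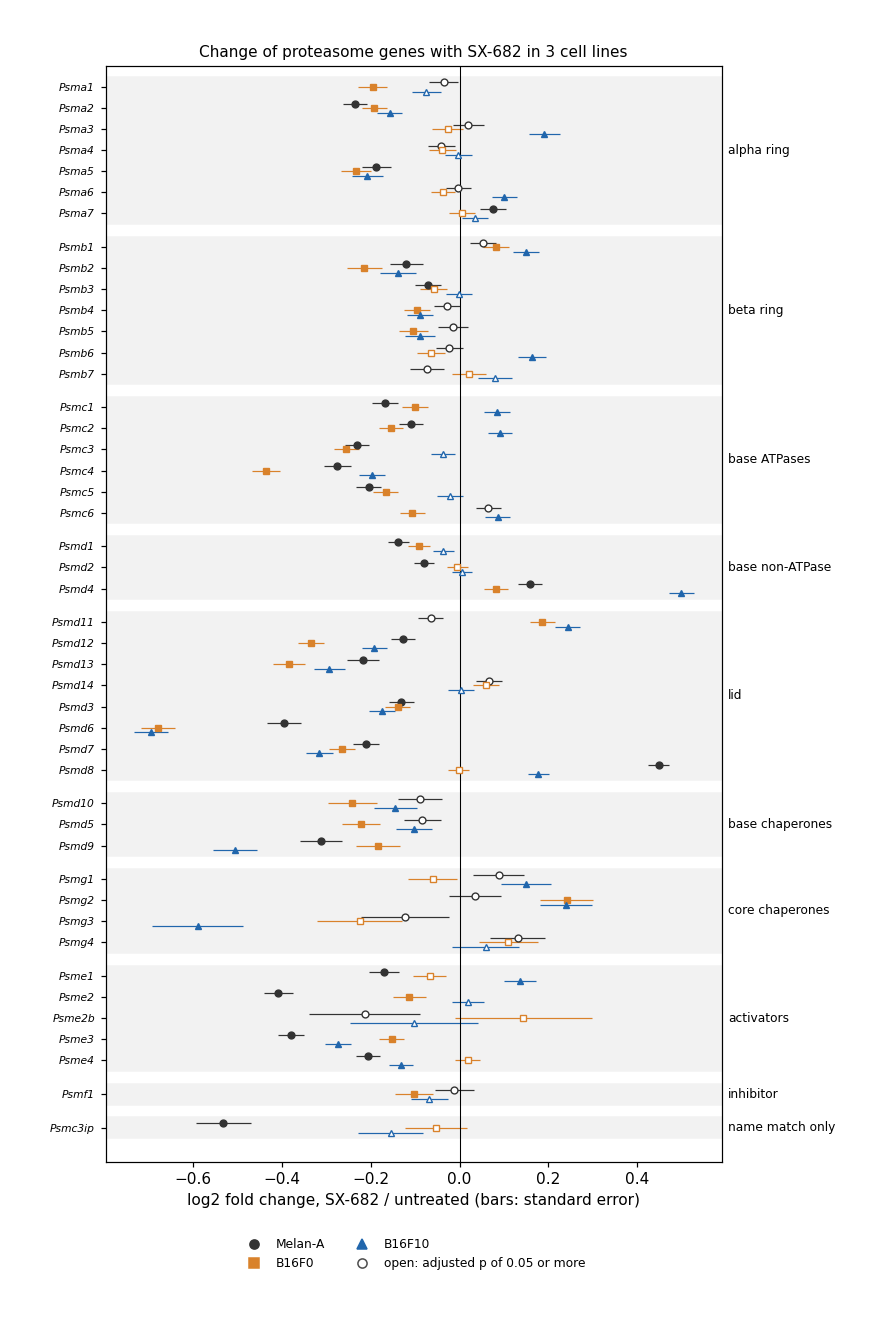
Log2 fold change (SX-682 over untreated, horizontal axis) with its standard error for each of the 45 proteasome-family genes tested, grouped by role, in Melan-A (circles), B16F0 (squares) and B16F10 (triangles); open symbols had an adjusted p of 0.05 or more. Most points lie within 0.25 of 0, Psmd6 lies at -0.40, -0.68 and -0.70, and the base ATPases of B16F10 lie to the right of those of B16F0.

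The core particle changed little. Beside the counts of this and each later role stand the shares over all genes tested in Melan-A, B16F0 and B16F10. These were 24.7%, 25.0% and 25.3% lower and 23.4%, 25.1% and 25.5% higher. Of the 14 alpha and beta ring genes, 4 fell and 1 rose in Melan-A, 6 fell and 1 rose in B16F0, and 5 fell and 4 rose in B16F10, with medians of -0.03, -0.06 and -0.0018 on the log2 scale. Psmb5 (ENSMUSG00000022193.7, chr14:54614119-54618022), the chymotrypsin-like site, stood at 89.5 and 85.3 CPM without and 84.2 and 88.8 CPM with SX-682 in Melan-A, at 123 and 119 without and 111 and 114 with it in B16F0, and at 114 and 114 without and 108 and 107 with it in B16F10. Its libraries overlapped in Melan-A and lay lower with SX-682 in both B16 lines. Psmb5 changed by -0.015 (adjusted p = 0.751) in Melan-A, by -0.10 (adjusted p = 0.0107) in B16F0 and by -0.089 (adjusted p = 0.0298) in B16F10, as log2 fold changes. The B16F0 call on Psmb5 was lost without SX-682 replicate 1 (log2 fold change -0.08, adjusted p = 0.13) or without control replicate 1 (-0.08, adjusted p = 0.12), and in B16F10 leaving out any of its 4 libraries ended it, with log2 fold changes between -0.104 and -0.079. DESeq2 also ended the B16F0 call (adjusted p = 0.051), and upper-quartile scaling and total counts alone the B16F10 call (adjusted p = 0.19 and 0.07). Psmb6 (chr11:70525367-70527858), the caspase-like site, stood at 211 and 198 CPM without and 202 and 201 CPM with SX-682 in Melan-A, at 179 and 169 without and 167 and 165 with it in B16F0, and at 155 and 161 without and 175 and 179 with it in B16F10. Only in B16F10 did Psmb6 pass the test, with both treated libraries higher and a log2 fold change of 0.16 ± 0.032 (adjusted p = 5.84e-05), and its response there exceeded that in B16F0 by 0.23 (adjusted p = 0.000188). In Melan-A and B16F0 its log2 fold changes were -0.023 (adjusted p = 0.58) and -0.064 (adjusted p = 0.0963). The trypsin-like site is encoded by Psmb7 (chr2:38588036-38644087), which stood at 128 and 115 CPM without and 116 and 114 CPM with SX-682 in Melan-A, at 132 and 127 without and 129 and 134 with it in B16F0, and at 136 and 144 without and 149.6 and 147 with it in B16F10. Psmb7 passed in no line, with log2 fold changes of -0.074 (adjusted p = 0.114), 0.022 (adjusted p = 0.693) and 0.08 (adjusted p = 0.086). An opposite-strand gene, Nek6, shares 11.8% of the exonic bases of Psmb7, and the strand setting of the counting is not given in the sources used here.

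Among the other ring genes, Psma2 and Psma5 of the alpha ring fell in each of the 3 lines. Psma2 changed by -0.24, -0.19 and -0.16 and Psma5 by -0.19, -0.23 and -0.21 on the log2 scale in Melan-A, B16F0 and B16F10, a nearly even decline. The beta ring gene Psmb1 rose by 0.083 in B16F0 and 0.15 in B16F10. Its B16F0 call was lost without SX-682 replicate 2 (0.044, adjusted p = 0.28) or control replicate 2 (0.068, adjusted p = 0.15). Psma3, which helps to close the gate of the core, rose only in the B16F10 test, by 0.19 ± 0.035, and its change differed between the B16 lines (difference 0.22, adjusted p = 0.000961). Psma3, Psma4, Psma5 and Psmb5 each have a copy elsewhere with over 95% identity, as have the base genes Psmc1 and Psmd2. The counts on these copies were at most 1.05% of those on the gene. The handling of reads that match both is not given in the sources used here, so reads lost from both could not be seen.

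Of the 6 ATPases of the base, all fell in B16F0. In Melan-A 5 fell and Psmc6 did not pass (0.065, adjusted p = 0.0602), while in B16F10 3 rose, 1 fell and 2 did not pass. Psmc4 fell most. It stood at 157 and 145 CPM without and 125 and 124 CPM with SX-682 in Melan-A, at 176 and 173 without and 131 and 128 with it in B16F0, and at 241 and 246 without and 210.1 and 214 with it in B16F10. The treated libraries of Psmc4 lay below the untreated ones in every line, with log2 fold changes of -0.28 ± 0.031, -0.44 ± 0.032 and -0.20 ± 0.03 (adjusted p = 9.14e-09, 8.66e-13 and 2.03e-06). Psmc1 stood at 211 and 196 CPM without and 181 and 182 CPM with SX-682 in Melan-A, at 319 and 313 without and 289 and 300.1 with it in B16F0, and at 204 and 207 without and 219 and 216 with it in B16F10. Treated libraries of Psmc1 were lower in Melan-A (-0.17 ± 0.029) and B16F0 (-0.10 ± 0.029) but higher in B16F10 (0.084 ± 0.029). These B16 calls are close to the threshold: that in B16F0 was lost without SX-682 replicate 1 (-0.074, adjusted p = 0.068) or control replicate 1 (-0.086, adjusted p = 0.052), and that in B16F10 without SX-682 replicate 1 (0.064, adjusted p = 0.17) or either control library (0.073 and 0.088, adjusted p = 0.12 and 0.059). Psmc2 changed by -0.11, -0.15 and 0.091 in the 3 lines, and Psmc3 by -0.23, -0.25 and -0.038, the last not passing (adjusted p = 0.262). The B16F10 rise of Psmc2 was lost without SX-682 replicate 1 (0.080, adjusted p = 0.059) or control replicate 1 (0.070, adjusted p = 0.097), and that of Psmc6, at 0.086, without SX-682 replicate 1 (0.057, adjusted p = 0.21) or control replicate 2 (0.075, adjusted p = 0.099). The test of the difference between the B16 lines was passed by all 6 ATPases in the same direction, where 15.3% of all genes passed it on the higher side: the response in B16F10 exceeded that in B16F0 by between 0.15 (Psmc5) and 0.25 (Psmc2) on the log2 scale. For Psmc5 this call was lost without B16F10 control replicate 1 (0.113, adjusted p = 0.059), and for the other 5 it held in all 12 fits with a library left out. Summed, the 6 ATPases stood at 1332 and 1314 CPM in untreated and 1147 and 1171 CPM in treated B16F0, and at 1234 and 1257 CPM and 1241 and 1240 CPM in B16F10.

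A ubiquitin receptor and a lid gene held the largest rise and the largest fall shared by the lines. Psmd4 (ENSMUSG00000005625.15, chr3:95032694-95042614), which binds ubiquitin chains at the base, was the 1 gene of the 45 called higher in every line, a share of 2.22%. Over the whole table that share was 11.3%. It stood at 175 and 169 CPM without and 192 and 194 CPM with SX-682 in Melan-A, at 207 and 199.6 without and 218 and 212 with it in B16F0, and at 164 and 165 without and 231 and 235 with it in B16F10. Both treated libraries lay above both untreated ones in each line, with log2 fold changes of 0.16 ± 0.027 (adjusted p = 1.08e-05), 0.082 ± 0.027 (adjusted p = 0.0127) and 0.50 ± 0.028 (adjusted p = 1.42e-15). The small rise in B16F0 was lost without SX-682 replicate 1 (0.063, adjusted p = 0.12) or control replicate 2 (0.055, adjusted p = 0.20). The rise of Psmd4 in B16F10 exceeded that in B16F0 by 0.42 ± 0.039 (adjusted p = 1.08e-09). The remaining base subunits, the scaffolds Psmd1 and Psmd2, both fell in Melan-A (-0.14 and -0.08), Psmd1 fell in B16F0 (-0.091), and neither passed in B16F10. The Psmd2 call was lost without Melan-A SX-682 replicate 2 (-0.065, adjusted p = 0.069) or control replicate 1 (-0.039, adjusted p = 0.22), and with upper-quartile scaling (adjusted p = 0.059).

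Psmd6 (ENSMUSG00000021737.4, chr14:14112174-14120984), a scaffold subunit of the lid whose promoter held neither motif, showed the largest shared fall. It stood at 80.2 and 86.3 CPM without and 62.8 and 63.8 CPM with SX-682 in Melan-A, at 112 and 115 without and 72 and 69.8 with it in B16F0, and at 115 and 123 without and 72.9 and 74.3 with it in B16F10. No treated library of Psmd6 reached an untreated one of its line, and the untreated lines differed more from each other than the treated ones did. The log2 fold change was -0.40 ± 0.038 (adjusted p = 4.4e-10) in Melan-A, compared with -0.68 ± 0.038 (adjusted p = 3.38e-15) and -0.70 ± 0.038 (adjusted p = 1.34e-15) in B16F0 and B16F10. Its fall was deeper in the B16 lines than in Melan-A by 0.29 ± 0.047 (adjusted p = 8.48e-06). Psmd8 (ENSMUSG00000030591.17, chr7:29174188-29180701), the lid subunit that joins last in assembly, went the other way in Melan-A. It stood at 193 and 199 CPM without and 269 and 267 CPM with SX-682 in Melan-A, at 481 and 479 without and 478 and 481 with it in B16F0, and at 429 and 424 without and 474 and 489.9 with it in B16F10. Psmd8 rose by 0.45 ± 0.024 (adjusted p = 9.03e-16) in Melan-A and 0.18 ± 0.023 (adjusted p = 1.28e-07) in B16F10, whereas in B16F0 the libraries overlapped (-0.0018, adjusted p = 0.99). Treated Melan-A still held less Psmd8 than any B16 library.

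Of the other lid genes, Psmd3, Psmd7, Psmd12 and Psmd13 fell in all 3 lines, so that 5 of the 8 lid genes fell in each line. Psmd13 stood at 98.7 and 102 CPM without and 87.9 and 84.7 CPM with SX-682 in Melan-A, at 137 and 134 without and 108 and 100.2 with it in B16F0, and at 170.5 and 175 without and 136 and 146 with it in B16F10. Its treated libraries were below the untreated ones in every line, with log2 fold changes of -0.22 ± 0.036, -0.38 ± 0.036 and -0.29 ± 0.035. Sirt3 on the opposite strand shares 10.1% of the exonic bases of Psmd13. Psmd7, the partner of the deubiquitinase, changed by -0.21, -0.27 and -0.32. Psmd14, the deubiquitinase of the lid, passed in no line, at 0.067, 0.06 and 0.0041 (adjusted p = 0.0598, 0.099 and 0.966). Psmd11, a lid scaffold known to promote assembly of the complete proteasome, stood at 159 and 158 CPM without and 149.5 and 153 CPM with SX-682 in Melan-A, at 172 and 172 without and 199.9 and 192 with it in B16F0, and at 145 and 141 without and 167 and 172 with it in B16F10. In both B16 lines its treated libraries were higher, by 0.19 ± 0.028 and 0.24 ± 0.029, and in Melan-A they were slightly lower without passing (-0.065, adjusted p = 0.059). The B16 response of Psmd11 differed from that of Melan-A by 0.28 ± 0.035 (adjusted p = 1.2e-07).

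**Figure D2:**
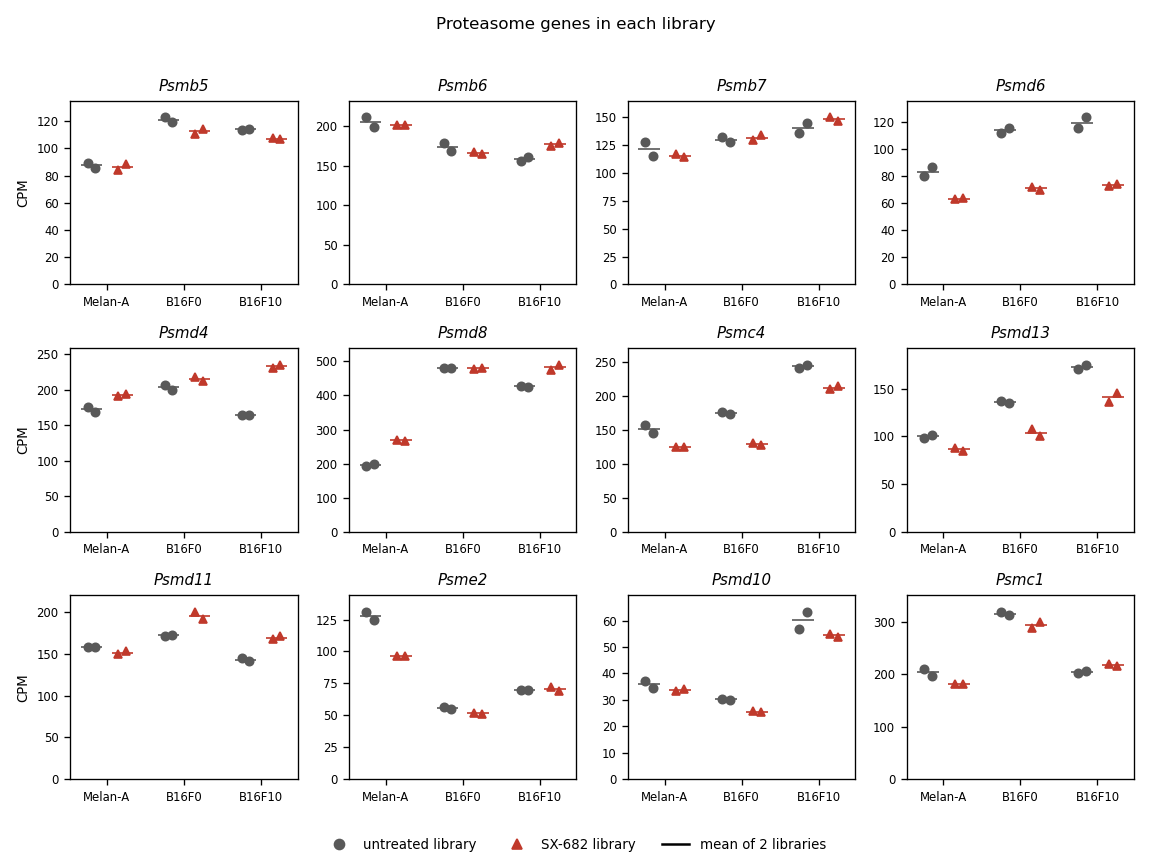
TMM-scaled CPM (vertical axes from 0) of 12 proteasome genes in the 2 untreated (grey circles) and 2 SX-682 libraries (red triangles) of Melan-A, B16F0 and B16F10; short lines are means of 2 libraries. Psmd6, Psmc4 and Psmd13 are lower with SX-682 in each line, and Psmd4 is higher in each line. Untreated, Psmd8 and Psme2 differ more between Melan-A and the B16 lines than they change with SX-682.

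Of the 5 activator genes, 4 fell in Melan-A, 2 fell in B16F0, and 2 fell and 1 rose in B16F10. Psme2, a subunit of the interferon-inducible activator ring, stood at 131 and 124 CPM without and 96.2 and 96.1 CPM with SX-682 in Melan-A, at 56.5 and 55.3 without and 52.1 and 51.2 with it in B16F0, and at 69.6 and 69.5 without and 71.8 and 69.1 with it in B16F10. Both treated Melan-A libraries lay below both untreated ones, with a log2 fold change of -0.41 ± 0.033 (adjusted p = 1.06e-11). In B16F0 the fall of Psme2 was -0.11 (adjusted p = 0.0129) and was lost without SX-682 replicate 2 (-0.101, adjusted p = 0.07) or control replicate 1 (-0.097, adjusted p = 0.10), and in B16F10 the libraries overlapped (0.02, adjusted p = 0.704). The difference between the B16 and Melan-A responses was 0.36 ± 0.042 (adjusted p = 3.77e-08). Psme2b, a copy with 99.4% identity to Psme2 over 794 bases, stood at 9.11 and 8.07 CPM without and 7.78 and 7.03 CPM with SX-682 in Melan-A, at 3.48 and 2.72 without and 3.41 and 3.47 with it in B16F0, and at 4.45 and 4.5 without and 3.54 and 4.8 with it in B16F10. It passed in no line, and reads of this pair could be split between them by the counting. Psme1, the partner of Psme2 in the ring, fell in Melan-A (-0.17 ± 0.033) and rose by 0.14 ± 0.037 in B16F10, a call lost without SX-682 replicate 1 (0.103, adjusted p = 0.068) or control replicate 1 (0.09, adjusted p = 0.10). Psme3, the nuclear activator, fell in every line, with log2 fold changes of -0.38 ± 0.029, -0.15 ± 0.029 and -0.27 ± 0.029.

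The assembly chaperones are split between base and core. All 3 base chaperones fell in both B16 lines, but the B16F10 call on Psmd5 (-0.10) was lost without either SX-682 library (-0.098 and -0.112, adjusted p = 0.13 and 0.083) or without control replicate 1 (-0.067, adjusted p = 0.32), and with upper-quartile scaling or total counts alone (adjusted p = 0.17 and 0.078). Psmd9 fell in every line, with log2 fold changes of -0.31 ± 0.046, -0.18 ± 0.05 and -0.51 ± 0.05. Gm26745 on the opposite strand, which was not among the counted genes, shares 25.5% of the exonic bases of Psmd9. The B16F0 value of Psmd9 lost its call without SX-682 replicate 1 (-0.117, adjusted p = 0.13). Psmd10, known as the oncoprotein gankyrin, stood at 37.2 and 34.6 CPM without and 33.4 and 34 CPM with SX-682 in Melan-A, at 30.5 and 29.9 without and 25.8 and 25.2 with it in B16F0, and at 57 and 63.2 without and 54.9 and 53.9 with it in B16F10. Its log2 fold changes in the 3 lines were -0.089 (adjusted p = 0.15), -0.24 (adjusted p = 0.000433) and -0.14 (adjusted p = 0.0131), in the order above, the last lost with upper-quartile scaling (adjusted p = 0.056) and without SX-682 replicate 2 (-0.129, adjusted p = 0.086) or control replicate 2 (-0.074, adjusted p = 0.33). None of the 4 core chaperones passed in Melan-A. Psmg2, which pairs with Psmg1 in building the alpha ring, stood at 22.3 and 24.9 CPM without and 24 and 24.5 CPM with SX-682 in Melan-A, at 26.8 and 24.7 without and 29.9 and 31.1 with it in B16F0, and at 25.9 and 26.6 without and 31.7 and 30.4 with it in B16F10. Its treated libraries were higher in both B16 lines, by 0.24 ± 0.059 and 0.24 ± 0.06. Psmg1 stood at 19 and 18.3 CPM without and 19.5 and 20.2 CPM with SX-682 in Melan-A, at 29.7 and 30.1 without and 28.7 and 28.7 with it in B16F0, and at 24.3 and 25.4 without and 26.9 and 28.4 with it in B16F10. It passed only in the B16F10 test, at 0.15 (adjusted p = 0.0258), a call lost without SX-682 replicate 2 (0.113, adjusted p = 0.21) or control replicate 1 (0.119, adjusted p = 0.18), by DESeq2 (adjusted p = 0.062) and with no filter (adjusted p = 0.085). The response of Psmg1 in B16F10 exceeded that in B16F0 by 0.21 (adjusted p = 0.041), a call lost in 9 of the 12 fits with a library left out (0.173 to 0.236). Psmg3 stood at 7.31 and 7.27 CPM without and 6.67 and 6.71 CPM with SX-682 in Melan-A, at 12.3 and 10.4 without and 9.42 and 10.1 with it in B16F0, and at 10.5 and 9.26 without and 6.64 and 6.5 with it in B16F10. It fell in B16F10, with a log2 fold change of -0.59 ± 0.1 (adjusted p = 1.3e-05), and passed in neither of the other lines. Its partner Psmg4 stood at 21.6 and 21.8 CPM without and 23.5 and 24 CPM with SX-682 in Melan-A, at 16.9 and 18.4 without and 18.7 and 19.4 with it in B16F0, and at 10.4 and 11.2 without and 11.1 and 11.5 with it in B16F10. It passed in none.

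Psmf1, the inhibitor, had log2 fold changes of -0.012 (adjusted p = 0.86), -0.10 (adjusted p = 0.0491) and -0.068 (adjusted p = 0.192), and its B16F0 call was lost in 9 of the 12 fits with a library left out and under 6 other settings (adjusted p = 0.062 to 0.16). Psmc3ip stood at 34.3 and 32.1 CPM without and 23.9 and 22.1 CPM with SX-682 in Melan-A, at 19.3 and 17.6 without and 17.3 and 18.4 with it in B16F0, and at 14.6 and 15.1 without and 12.8 and 13.8 with it in B16F10. It fell in Melan-A, with a log2 fold change of -0.53 ± 0.062 (adjusted p = 1.74e-08), and passed in neither B16 line. Mlx, on the opposite strand, shares 21.2% of the exonic bases of Psmc3ip and had more counts in all (27813 against 17337), and the part of Mlx in this result was not tested. The testis-specific alpha subunit Psma8 had 0 to 2 counts in every library, and the thymus-specific beta subunit Psmb11 had 2 to 12 counts in the Melan-A libraries, 0 to 3 in B16F0 and 0 in B16F10. Psma8 and, in the B16 lines, Psmb11 lay at or below the limit of 3 counts that a count of 0 allows. In some Melan-A libraries Psmb11 lay above it. Neither passed the expression filter, and no fold change is given for these genes.

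Shared calls leaned to one side. Across the 3 lines, 11 of the 45 genes fell in each (24.4%, where the table as a whole gave 11.7%): Psma2, Psma5, Psmb2, Psmc4, Psmd3, Psmd6, Psmd7, Psmd9, Psmd12, Psmd13 and Psme3. Of these, Psmb2 and Psmd9 lost a call in at least 1 line when a single library was left out, Psmb2 in Melan-A without SX-682 replicate 1 (-0.093, adjusted p = 0.13) or control replicate 2 (-0.057, adjusted p = 0.32) and in B16F10 without SX-682 replicate 1 (-0.116, adjusted p = 0.068) or control replicate 1 (-0.105, adjusted p = 0.095). Another 5 genes, Psma4, Psmb7, Psmd14, Psme2b and Psmg4, passed in no line. The F-test of whether the response differed among the lines was passed by 24 of the 45 genes (53.3%), near the 47.4% of all genes tested. In the test of the mean B16 response against that of Melan-A, 18 genes passed (35.8% of all genes tested did), 14 higher in B16 and 4 lower, against 18.7% and 17.1%, but total-count scaling gave 10 and 7. This count depended on single libraries: without Melan-A SX-682 replicate 2 or B16F10 control replicate 1, 8 genes were higher. Between the B16 lines 17 genes passed (30.3% of all genes tested did), of which 14 responded higher in B16F10 and 3 lower, against 15.3% and 14.9%.

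Genes with a motif were among both those that rose and those that fell. Of the 6 genes with the antioxidant response element letters, 3 fell and 3 did not pass in Melan-A, 4 fell and 2 did not pass in B16F0, and 2 rose and 4 fell in B16F10. The 2 that rose in B16F10 were Psmb6 (0.16) and Psmc6 (0.086). Of the 13 tested genes with the CCAAT letters, 2 rose and 6 fell in Melan-A, 1 rose and 6 fell in B16F0, and 5 rose and 3 fell in B16F10. These are counts, with no test. Over all genes tested, 23.4%, 25.1% and 25.5% rose and 24.7%, 25.0% and 25.3% fell in Melan-A, B16F0 and B16F10.

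Between the untreated lines the family differed by a median of 0.276 (B16F0 against Melan-A) and 0.373 (B16F10 against Melan-A) on the log2 scale, sign aside, where the medians within a line with SX-682 were 0.123, 0.109 and 0.136. Over all genes tested the untreated lines differed by 0.714 and 0.681. Altogether 39 and 40 of the 45 genes were called, where 75.9% and 74.2% of all genes tested were. The comparisons of B16F0 and of B16F10 with Melan-A share the Melan-A controls. In untreated B16F0, 26 genes were higher and 13 lower than in Melan-A, where 35.3% and 40.6% of all genes tested were. In untreated B16F10, 25 were higher and 15 lower, against 33.4% and 40.8%. Median log2 differences of the family were 0.12 and 0.10, against -0.06 and -0.10 over all genes. With total counts alone, which moved the median of all genes by -0.0927 and -0.186, the split became 21 higher and 15 lower in B16F0 and turned to 16 higher and 23 lower in B16F10. Psmd8 showed the largest excess: it was 1.29 ± 0.024 higher on the log2 scale in B16F0 and 1.12 ± 0.024 higher in B16F10 (adjusted p = 2.81e-28 and 1.18e-26), and its untreated B16 libraries, at 424 to 481 CPM, stood far above the Melan-A libraries at 193 and 199 CPM. The core chaperone Psmg1 was 0.68 ± 0.055 higher in B16F0, and Psmd13 was 0.78 ± 0.035 higher in B16F10.

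The genes of the activator ring stood lower in the B16 lines than in Melan-A. Psme1 was at 135 and 140.5 CPM in untreated Melan-A, 76.1 and 75.8 CPM in B16F0 and 67.6 and 72.2 CPM in B16F10, differences of -0.86 ± 0.034 and -0.98 ± 0.035. Psme2 was lower by 1.19 ± 0.035 and 0.88 ± 0.034 on the log2 scale, at the levels given above, and Psme2b by 1.46 ± 0.14 and 0.94 ± 0.13. In all 3 genes no B16 library reached a Melan-A library. Psmc3ip was -1.16 ± 0.066 in B16F10 relative to Melan-A, and Psmg4 was -1.002 ± 0.068.

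**Figure D3:**
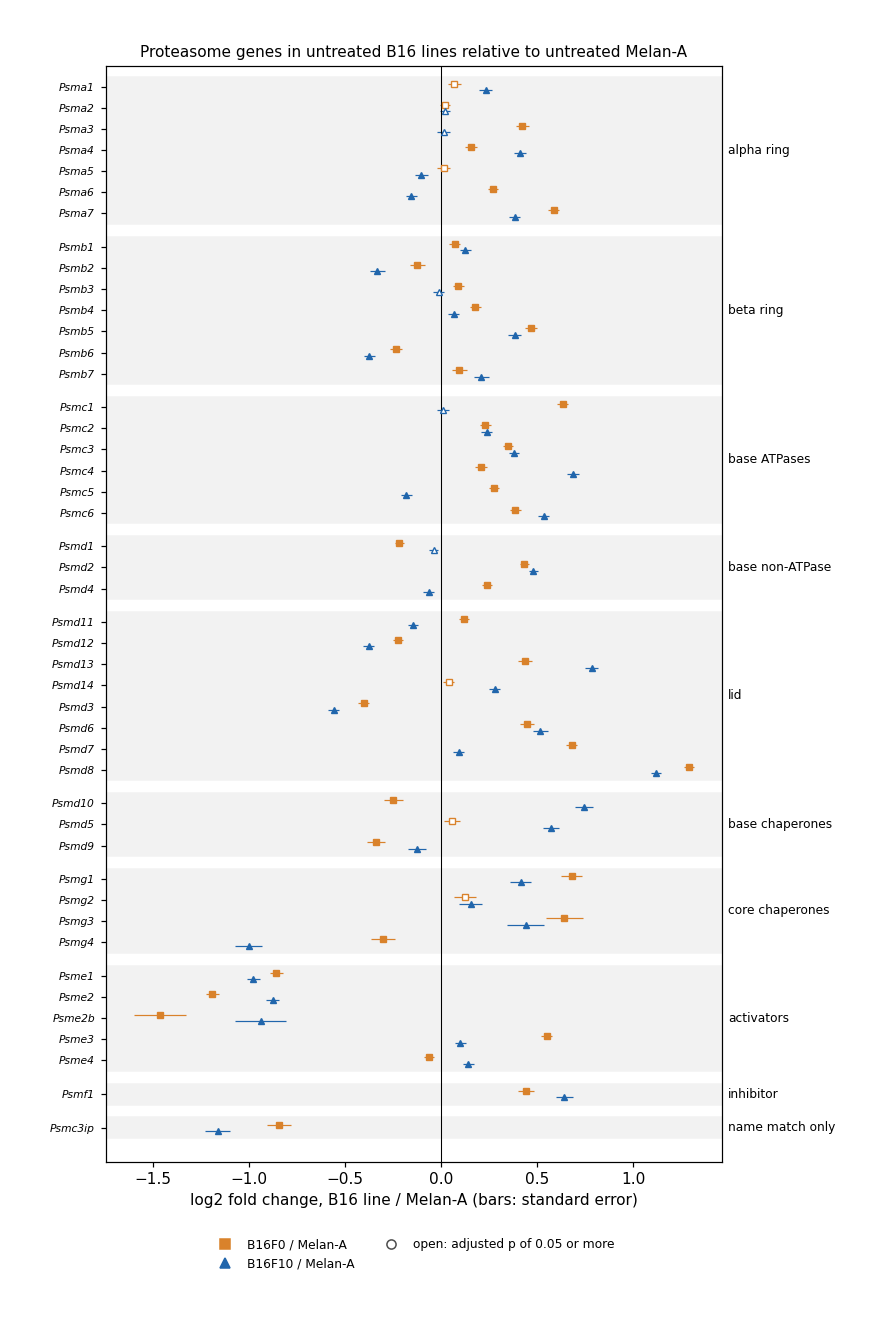
Log2 fold change (untreated B16 line over untreated Melan-A, horizontal axis) with its standard error for the 45 proteasome-family genes tested, grouped by role, for B16F0 (squares) and B16F10 (triangles), which share the Melan-A controls; open symbols had an adjusted p of 0.05 or more. Psmd8 lies at 1.29 and 1.12, Psme1, Psme2 and Psme2b lie between -1.46 and -0.86, and Psmd10 lies on opposite sides of 0 in the B16 lines.

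Untreated B16F10 and B16F0 differed from each other in 37 of the 45 genes, where 62.0% of all genes tested differed, with 15 higher and 22 lower in B16F10, against 30.8% and 31.2%. Psmd10 was the gene most raised in B16F10, by 0.99 ± 0.05 (adjusted p = 7.93e-17), with 57.0 and 63.2 CPM against 30.5 and 29.9 CPM in B16F0. The other base chaperones Psmd5 and Psmd9 were also higher in B16F10, by 0.51 and 0.21. Psme2b was 0.52 ± 0.15 higher (adjusted p = 0.00269), a call lost without B16F0 control replicate 2 (0.365, adjusted p = 0.067). On the other side, Psmg4 was -0.70 ± 0.07 and the ATPase Psmc1 -0.62 ± 0.029 relative to B16F0. Psmc1 had 204 and 207 CPM in B16F10 and 319 and 313 CPM in B16F0, while Psmc4 of the same ring was 0.48 ± 0.03 higher in B16F10, so the ATPase genes did not move together between the untreated lines.

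Levels per length, as TPM (the count per exonic base, rescaled to a common total in each library), from the counts and the exonic length in the table, set genes beside each other. In the 6 untreated libraries the median over the 14 core genes was 198 to 241 TPM, and over the 17 genes of the regulatory particle it was 177 to 238 TPM. Within the core, the median over untreated libraries ran from 125 TPM for Psma3 to 472 TPM for Psma6, and the catalytic genes had 405 TPM (Psmb5), 316 TPM (Psmb6) and 130 TPM (Psmb7). Within the regulatory particle it ran from 91.9 TPM for Psmd11 to 501 TPM for Psmd2. The core chaperones ran from 10.9 TPM for Psmg3 to 108 TPM for Psmg4, which lay above Psmd11, and the base chaperone Psmd9 stood at 18.4 TPM and the inhibitor Psmf1 at 28.6 TPM. Genes of one complex thus differed several-fold in level per length. For the 47 genes the length used was the union of all annotated exons, whichever transcript was present. It was 1234 bases for Psma6, 3894 for Psma3, 555 for Psmg4 and 6383 for Psmd11. The part of this length in the order of genes was not tested. The order of neighbours such as Psma6 and Psmc5 (484 TPM) is also within the spread of the libraries.

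Genes that act on or beside the proteasome were followed as lists. For each list the background was 23.4%, 25.1% and 25.5% of all genes tested higher in Melan-A, B16F0 and B16F10. Lower were 24.7%, 25.0% and 25.3%. Of the 9 genes of the NRF1 pathway, 6 rose and 2 fell in Melan-A, 6 rose and 1 fell in B16F0, and 4 rose and 4 fell in B16F10. Nfe2l1, which encodes NRF1, stood at 417 and 411 CPM without and 565 and 564 CPM with SX-682 in Melan-A, at 416 and 416 without and 1068 and 1030.0 with it in B16F0, and at 302 and 308 without and 813 and 812 with it in B16F10. Every treated library of Nfe2l1 exceeded every untreated one of its line, with log2 fold changes of 0.45 ± 0.022 (adjusted p = 1.19e-16), 1.33 ± 0.022 (adjusted p = 5.38e-28) and 1.42 ± 0.022 (adjusted p = 1.2e-28). In the same libraries 3, 4 and 13 of the 45 proteasome-family genes rose (6.67%, 8.89% and 28.9%). Of all genes tested, 23.4%, 25.1% and 25.5% rose there, and a link of these counts to Nfe2l1 was not tested. Mafk, a small MAF partner of NRF1 and NRF2, stood at 72.3 and 71.9 CPM without and 101 and 101 CPM with SX-682 in Melan-A, at 48.9 and 48.1 without and 69.5 and 72.2 with it in B16F0, and at 75.7 and 79.2 without and 45.6 and 48.6 with it in B16F10. It rose in Melan-A (0.48) and B16F0 (0.54) and fell in B16F10 (-0.72), and the difference between the B16 lines was -1.26 ± 0.055 (adjusted p = 9.19e-17).

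Ubb, a gene that encodes ubiquitin, stood at 746 and 779.6 CPM without and 875 and 889.7 CPM with SX-682 in Melan-A, at 544 and 527 without and 577 and 609.5 with it in B16F0, and at 719.9 and 710.2 without and 994 and 1013 with it in B16F10, a rise of 0.21, 0.15 and 0.49. Of the 10 shuttle and segregase genes, 1 rose and 5 fell in Melan-A, 3 rose and 2 fell in B16F0, and 4 rose and 3 fell in B16F10. Faf1, a cofactor of the segregase, stood at 49.5 and 46.1 CPM without and 66.2 and 64.6 CPM with SX-682 in Melan-A, at 62.7 and 63.7 without and 98.5 and 97.4 with it in B16F0, and at 72 and 70.4 without and 123 and 127 with it in B16F10. It rose in every line, by 0.45, 0.63 and 0.82. Vcp, the segregase itself, stood at 554 and 532 CPM without and 473 and 471 CPM with SX-682 in Melan-A, at 539 and 534 without and 523 and 520.4 with it in B16F0, and at 839 and 839 without and 623 and 625 with it in B16F10. It fell in Melan-A (-0.20) and B16F10 (-0.43) and not in the B16F0 test (-0.04, adjusted p = 0.13).

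**Figure D4:**
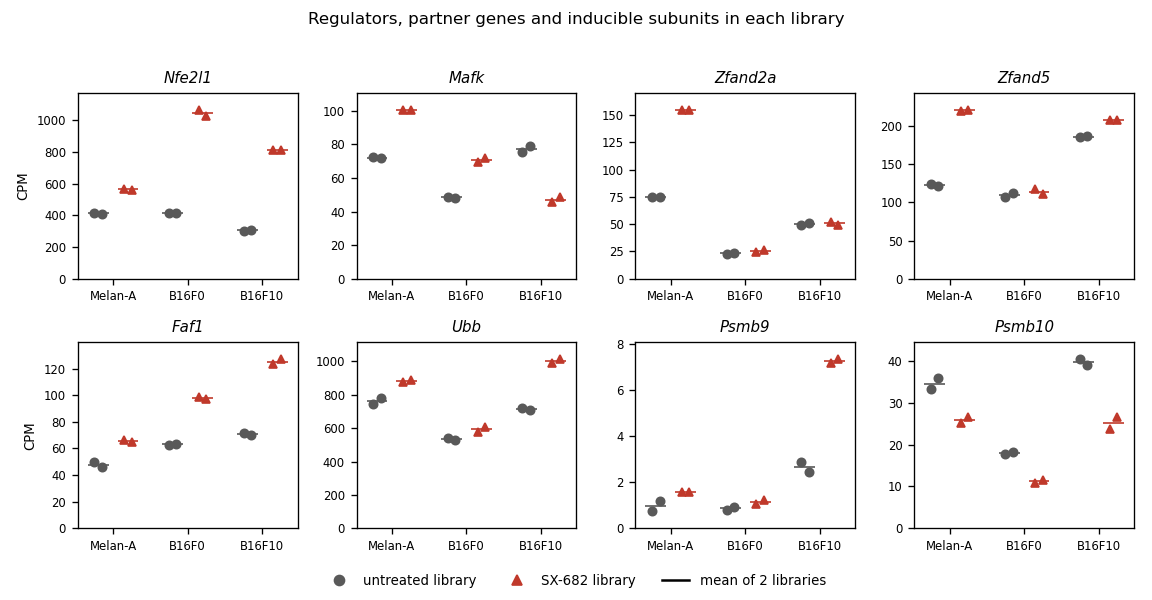
TMM-scaled CPM (vertical axes from 0) of Nfe2l1, Mafk, Zfand2a, Zfand5, Faf1, Ubb, Psmb9 and Psmb10 in the 2 untreated (grey circles) and 2 SX-682 libraries (red triangles) of each line; short lines are means of 2 libraries. Nfe2l1 is higher with SX-682 in each line and most in the B16 lines, Zfand2a and Zfand5 are raised mainly in Melan-A, and Psmb10 is lower in each line.

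Of 11 partners without a Psm name that were measured, 5 rose and 5 fell in Melan-A, 4 rose and 2 fell in B16F0, and 6 rose and 3 fell in B16F10. Zfand2a, a stress-induced proteasome-associated protein, stood at 74.5 and 74.8 CPM without and 155 and 154 CPM with SX-682 in Melan-A, at 22.5 and 24 without and 24.6 and 26.4 with it in B16F0, and at 49.6 and 51.3 without and 51.7 and 49.7 with it in B16F10. It rose by 1.05 ± 0.036 (adjusted p = 4.27e-20) in Melan-A, and the B16 response was lower than this by 0.98 ± 0.048 (adjusted p = 4.01e-16). Zfand5, which activates the proteasome, stood at 124 and 121 CPM without and 220.0 and 221 CPM with SX-682 in Melan-A, at 106 and 112 without and 117 and 111 with it in B16F0, and at 185 and 187 without and 208 and 208 with it in B16F10. Its rise was 0.85 ± 0.029 in Melan-A against 0.064 (adjusted p = 0.0885) in B16F0 and 0.16 in B16F10, and the B16 response was lower than that of Melan-A by 0.74 ± 0.036 (adjusted p = 3.92e-16). Pomp, the maturation factor of the core, which was named after its values were seen, stood at 76.9 and 78.5 CPM without and 56.8 and 57.2 CPM with SX-682 in Melan-A, at 146 and 140.0 without and 102 and 107 with it in B16F0, and at 131 and 134 without and 90.5 and 88.3 with it in B16F10. It fell in each line, with log2 fold changes of -0.45 ± 0.034, -0.46 ± 0.033 and -0.57 ± 0.033.

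The 3 inducible subunits that replace catalytic ones in the immunoproteasome moved apart from each other. Psmb10, the counterpart of Psmb7, stood at 33.3 and 35.9 CPM without and 25.3 and 26.5 CPM with SX-682 in Melan-A, at 17.8 and 18.2 without and 10.8 and 11.6 with it in B16F0, and at 40.4 and 38.9 without and 23.8 and 26.7 with it in B16F10. It fell in each line, with log2 fold changes of -0.42 ± 0.058, -0.68 ± 0.071 and -0.65 ± 0.06. Psmb9, the counterpart of Psmb6, stood at 0.764 and 1.2 CPM without and 1.58 and 1.56 CPM with SX-682 in Melan-A, at 0.801 and 0.937 without and 1.05 and 1.23 with it in B16F0, and at 2.86 and 2.44 without and 7.17 and 7.33 with it in B16F10. Treated libraries of Psmb9 were higher in every line, and the change passed in Melan-A (0.67, adjusted p = 0.0113, lost without control replicate 1 at 0.396, adjusted p = 0.21) and B16F10 (1.45 ± 0.19, adjusted p = 1.14e-07) but not in B16F0 (0.38, adjusted p = 0.213). Psmb8, the counterpart of Psmb5, was at or near the floor of 3 counts in Melan-A, at most 0.51 CPM in B16F0, and 4.73 and 5.63 CPM without and 6.73 and 7.71 CPM with SX-682 in B16F10, where its rise of 0.48 (adjusted p = 0.0341) was lost by DESeq2 (adjusted p = 0.073) and when any of the 4 libraries was left out (0.357 to 0.603). Per length, untreated B16F10 libraries held 4.47 and 5.33 TPM of Psmb8 and 2.50 and 2.14 TPM of Psmb9, and treated ones 6.24 and 7.03 TPM of Psmb8 and 6.14 and 6.18 TPM of Psmb9. The constitutive counterparts lay far above these, with 404 and 407 TPM of Psmb5 and 265 and 275 TPM of Psmb6 in the untreated and 375 and 366 TPM of Psmb5 and 293 and 295 TPM of Psmb6 in the treated libraries.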

How the data were processed

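RNA was sequenced in 12 libraries. The authors deposited a table of raw gene counts, not normalized, with gene coordinates and exonic lengths. The submitters' processing notes name cutadapt, STAR, DESeq2 and the mm10 build, while versions, the counting program and its strand setting are not given in the sources used here. Samples were grouped by the labels, and 0 columns lacked a sample.

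Counts were filtered with filterByExpr, scaled by TMM and tested in R 4.3.3 with edgeR 4.0.16 (limma 3.58.1). A quasi-likelihood fit of all 12 libraries had 1 coefficient for each of the 6 groups and no replicate block, and p-values were adjusted over all genes tested by the Benjamini-Hochberg method. Log2 fold changes used a prior count of 0.125. Each standard error is the size of the log2 fold change divided by the square root of its F statistic, an approximation. TPM was computed from counts and exonic lengths. The limit that a count of 0 allows was set at 3 counts and covers counting error only. No replicate pair held identical values.

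The 47 genes and all other lists were chosen with earlier results of these data known. Library values were planned for the catalytic genes, the 2 largest called rises and falls (mean log2 CPM of at least 1) of each SX-682 and untreated comparison, the 3 largest B16 minus Melan-A differences, genes near 0, the 2 genes of each other list with the largest change, and every gene of a list of 3 or fewer. Those of Psmb7, Psmg4 and others that passed no test are given as values. Promoters came from a RefSeq table of GRCm38.p6. Alternatives were DESeq2 1.42.0, RLE, upper-quartile and total-count scaling, other count filters, other thresholds, fits of only the groups compared, a replicate block, and each library left out. The steps were tested on simulated data. One result of the other lists is not reported here.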

Additional observations from a re-analysis of the deposited data

Results flagged for a closer look

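A test of the difference between lines picked out the following responses to SX-682 (edgeR's quasi-likelihood test, adjusted p below 0.05), given as differences of log2 fold changes. The mean response of the B16 lines was above that of Melan-A, by the log2 difference beside each name, in Psmc3ip 0.43, Psme2 0.36, Psmd11 0.28, Psmg2 0.21, Psme1 0.20, Psme3 0.17, Psmc1 0.16, Psme4 0.15, Psmd4 0.13, Psmb7 0.12, Psmc5 0.11, Psmc3 0.084, Psmd2 0.081, Psmd1 0.074. It was below that of Melan-A in Psmd8 -0.36, Psmd6 -0.29, Psmd12 -0.14, Psmd13 -0.12. The response in B16F10 was above that in B16F0 in Psmd4 0.42, Psmc2 0.25, Psmc4 0.24, Psmb6 0.23, Psma3 0.22, Psmc3 0.22, Psmg1 0.21, Psme1 0.20, Psmc6 0.19, Psmc1 0.18, Psmd8 0.18, Psmc5 0.15, Psmd12 0.14, Psma6 0.14. It was below it in Psmd9 -0.32, Psme4 -0.15, Psme3 -0.12. When a library was left out, the B16 minus Melan-A difference was no longer past the threshold for Psmb7 in 8 of the 12 fits (0.035 to 0.127), Psmc3 in 10 of the 12 fits (0.035 to 0.083), Psmc5 without B16F10 control replicate 1 (0.085) or Melan-A SX-682 replicate 2 (0.088) or Melan-A control replicate 1 (0.089), Psmd1 in 12 of the 12 fits (0.055 to 0.075), Psmd13 without Melan-A SX-682 replicate 1 (-0.108) or Melan-A control replicate 1 (-0.108), Psmd2 in 10 of the 12 fits (0.037 to 0.075) and Psmg2 in 7 of the 12 fits (0.116 to 0.211). When a library was left out, the B16F10 minus B16F0 difference was no longer past the threshold for Psma6 without B16F10 SX-682 replicate 2 (0.116), Psmc5 without B16F10 control replicate 1 (0.113), Psmd12 without B16F10 control replicate 2 (0.124), Psme3 without B16F0 control replicate 1 (-0.121) or B16F10 SX-682 replicate 1 (-0.085) or B16F10 control replicate 2 (-0.117) and Psmg1 in 9 of the 12 fits (0.173 to 0.236). The other 11 of 18 and 12 of 17 differences were past it in every such fit. With 2 libraries in each group, single libraries could not be tested as outliers.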

How the results depend on the processing

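Of 360 results for single proteasome genes (45 genes in 8 comparisons), none that was called turned direction when any 1 of the 12 libraries was left out. With 2 libraries a group, a fit without 1 library assumed that the lone library varied like the other groups. Changes of about 0.1 on the log2 scale were near what this depth and replication could call. DESeq2 called the same direction for 24 of 25 genes in Melan-A with SX-682, 26 of 28 for B16F0, 29 of 30 for B16F10, 15 of 18 and 16 of 17 response differences, and 36 of 39, 37 of 40 and 36 of 37 untreated differences. The cause was not tested for any change given here.

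Whether the replicate numbers pair the samples is not given in the labels, and 2 libraries in a group could not settle it. Deviations of same-numbered libraries correlated at -0.12, -0.0287 and -0.0511 across 9909 genes for the 3 lines, and with the replicate block 358 of the 360 results kept their side of the threshold, 1 lost its call and 1 gained one. With the pairing crossed in Melan-A, added after seeing the data, these counts were the same. The count of genes higher with SX-682 under the replicate block was 3 for Melan-A, 4 for B16F0 and 13 for B16F10, as without it.

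Counts of genes called moved with the threshold and with the scaling. Requiring a log2 change of at least 0.25 as well left 1 higher and 6 lower for Melan-A with SX-682, 0 higher and 6 lower for B16F0, and 1 higher and 6 lower for B16F10. It left 3 higher and 2 lower for the B16 response against that of Melan-A, and 1 and 1 for that of B16F10 against B16F0. Between untreated lines it left 17 higher and 7 lower (B16F0 against Melan-A), 16 and 9 (B16F10 against Melan-A) and 7 and 11 (B16F10 against B16F0). An adjusted p below 0.01 left 2 higher for B16F0 with SX-682 and 8 higher for the B16 response against that of Melan-A. Genes higher with SX-682 in Melan-A numbered 5 with DESeq2 and with RLE scaling, 6 with at least 10 counts in every library or only the groups of the comparison, and 7 with total counts alone or upper-quartile scaling. Total counts alone left 7 genes lower in the B16 response than in that of Melan-A, and gave 16 higher and 23 lower in untreated B16F10 than in untreated Melan-A.

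The median log2 difference of the family in untreated B16F0 against Melan-A became 0.09043 with DESeq2, 0.09058 with RLE scaling, 0.08209 with at least 10 counts in every library, 0.03106 with total counts alone, 0.1592 with upper-quartile scaling and 0.1398 without Psmc3ip, Psma8 and Psmb11, a choice made after seeing the data. In untreated B16F10 against Melan-A it became 0.0708, 0.07079, 0.0355, -0.08528 and 0.08264 under the first 5 of these settings and 0.1216 with no filter. In untreated B16F10 against B16F0 it became -0.1089 with at least 10 counts, -0.1786 with total counts alone, -0.1389 with upper-quartile scaling and -0.04248 without those 3 genes. With total counts alone, the median change with SX-682 was -0.0715 in Melan-A, and the median excess of the B16F10 response over that of B16F0 was 0.08771. With upper-quartile scaling the medians with SX-682 were -0.05997, -0.08091 and -0.002906 for Melan-A, B16F0 and B16F10. Without those 3 genes the median B16 response minus that of Melan-A was -0.002917.

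With any 1 library left out, the median change with SX-682 lay between -0.1114 and -0.07792 for B16F0 and between -0.09271 and -0.07016 for Melan-A, and that of the B16 response minus the Melan-A response from -0.003287 to 0.02404. Untreated medians ran from 0.1196 to 0.1563 (B16F0 against Melan-A), from 0.07674 to 0.1156 (B16F10 against Melan-A) and from -0.1036 to -0.05541 (B16F10 against B16F0). Genes higher with SX-682 numbered 2 to 4 in B16F0, with 2 without B16F0 control replicate 2, and 2 to 6 in Melan-A. The B16 response was higher than that of Melan-A for 8 to 14 genes and lower for 4 to 8, with 8 lower without B16F0 SX-682 replicate 2.

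Among log2 changes and differences of single genes that were called before or after the change of setting, direction turned with total counts alone and under no other setting tried, for 21 differences between untreated lines, some of them not called and near 0 with TMM. In B16F0 against Melan-A these log2 differences became -0.02163 for Psmb1, -0.0725 for Psma2, -0.07832 for Psma5, -0.003563 for Psmb3 and -0.08583 for Nfe2l1. In B16F10 against Melan-A they became -0.1205 for Psmb4, -0.05978 for Psmb1, -0.1655 for Psma2, -0.176 for Psmc1, -0.03275 for Psmg2, -0.09471 for Psmd7, -0.04375 for Psme4, -0.1734 for Psma3, -0.08528 for Psme3, -0.08303 for Mafk, -0.1571 for Rps27a, -0.1527 for Rad23b and -0.1777 for Adrm1. In B16F10 against B16F0 they became -0.06348 for Psmc3, -0.09295 for Psma2 and -0.08791 for Psmc2.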

Other observations

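The spread of levels within a subcomplex differed between the lines, in another order for the regulatory particle than for the core. Over the 17 genes of the regulatory particle, the standard deviation of log2 TPM across genes was 0.725 to 0.769 in the 4 Melan-A libraries, 0.903 to 0.95 in the 4 B16F0 libraries and 0.798 to 0.851 in the 4 B16F10 libraries. Over the 14 alpha and beta ring genes it was 0.71 to 0.714 in Melan-A, 0.725 to 0.73 in B16F0 and 0.626 to 0.654 in B16F10. These are values across genes of single libraries, with no test.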
